A study of Rattus norvegicus with 9 samples.

Results

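Pancreatic acinar cells, the exocrine cells that surround the islets, secrete fat-digesting enzymes, and 6 genes of these cells were followed in islet RNA. These are the triglyceride lipase Pnlip, its relatives Pnliprp1 and Pnliprp2, the carboxyl ester lipase Cel, the colipase Clps and Gp2. Clps encodes a cofactor and Gp2 the main membrane glycoprotein of zymogen granules, so neither encodes an enzyme. The 6 were the named genes, and each was matched by 1 probe set carrying that symbol alone in the platform annotation, out of 31042 probe sets that are not controls. All 6 passed the filter on low signal. The 5 cafeteria arrays carried islet RNA of male Wistar rats fed a cafeteria diet, with 66% of calories as fat, for 30 days, and the 4 standard arrays that of rats given chow with 8% of calories as fat for the same time. All rats were 7 weeks old and weighed 225 to 250 g at the outset, and each array is described as an independent sample.

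Titles, source names and descriptions name one diet for each sample, and the groups follow it. A separate diet entry names the other diet for 9 of 9 samples; under it, cafeteria and standard would change places and every difference below would take the opposite sign. The values are linear MAS5 signals, scaled so that each array has the same trimmed mean, and array medians lay between 147 and 167. Detection calls were not used here, and precision is set by having only 9 arrays. The hormone genes that define islets (Ins1, Ins2, Iapp, Gcg, Sst and Ppy) were bright on every array, with a summed signal of 174691 to 263660 on cafeteria arrays and 171354 to 250625 on standard arrays. Islets were freed with collagenase, separated on a gradient and picked by hand, per the labels. Acinar genes belong to another cell type than the islet cells the samples are labelled as. In bulk RNA, fewer acinar cells and less RNA per cell cannot be told apart.

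Pancreatic lipase splits dietary triglycerides in the gut and needs colipase, a small cofactor that anchors it to fat droplets coated with bile salts. Carboxyl ester lipase acts on cholesterol esters and other esters once bile salts activate it. All are packed with proteases and amylase into zymogen granules, whose secretion is triggered by cholecystokinin and by nerves. Pnlip, Pnliprp1 and Pnliprp2 stand next to each other on rat chromosome 1 in the RefSeq annotation. Gp2 lies elsewhere on chromosome 1, beside its relative Umod, while Cel is on chromosome 3 and Clps on chromosome 20.

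The RefSeq promoter table, build GRCr8, holds a window for 5 of the 6 genes and none for Clps. The 250 bases before the start site are printed for Pnlip (chr1:267784360-267784609, plus strand) and Cel (chr3:32289020-32289269, minus strand), whose log2 signals had r = 0.943 over the 9 arrays, and for Gp2 (chr1:183243955-183244204, minus strand), whose r with Pnlip was 0.539. Capitals mark the TATA sequence TATAAA, the core of a PTF1 site TTTCCC and the nuclear receptor site TGACCTT, searched on both strands, so that a match on the other strand reads as its reverse complement.
Pnlip: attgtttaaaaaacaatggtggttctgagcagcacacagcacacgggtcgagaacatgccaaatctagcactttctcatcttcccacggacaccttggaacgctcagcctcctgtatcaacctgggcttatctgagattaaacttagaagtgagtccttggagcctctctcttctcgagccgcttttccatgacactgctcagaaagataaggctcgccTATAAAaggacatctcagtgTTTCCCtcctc
Cel: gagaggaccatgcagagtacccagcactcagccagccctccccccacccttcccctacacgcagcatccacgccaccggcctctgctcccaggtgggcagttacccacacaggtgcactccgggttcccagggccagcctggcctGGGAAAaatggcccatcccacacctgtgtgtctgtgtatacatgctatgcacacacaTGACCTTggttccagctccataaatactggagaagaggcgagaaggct
Gp2: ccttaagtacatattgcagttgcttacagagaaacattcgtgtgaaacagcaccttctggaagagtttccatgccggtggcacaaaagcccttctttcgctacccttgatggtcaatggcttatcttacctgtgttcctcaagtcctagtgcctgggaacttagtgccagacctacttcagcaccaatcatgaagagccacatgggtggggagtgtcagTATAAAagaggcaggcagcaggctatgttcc
The TATA sequence TATAAA began at base -31 in Pnlip and in Gp2, and was in 2 of 5 windows against 12.9% of all 33469 promoters of the same length. TTTCCC, a core bound by the acinar transcription factor PTF1, was in 2 of 5 (Pnlip and Cel), against 22% of all promoters. CANNTG, the E-box that PTF1 binds beside it, was in 2 of 5 (4 matches in Cel and 2 in Gp2), against 65.5%. TGACCTT was in 1 of 5 (Cel), against 3.99%. These are matches of letters in a window and show no binding.

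The diet comparison asks whether these genes differed between cafeteria and standard islets. All 6 had a higher mean log2 signal in cafeteria islets, by 0.14 to 0.66, and the groups overlapped for every one of the 6. A positive difference was found for 48.1% of the 18625 probe sets tested. None of the 6 passed limma's test at an adjusted p of 0.05, nor did any probe set tested (0%). At an unadjusted p under 0.05 the same test gave 1080 probe sets, 560 higher (3.01%) and 520 lower, and 0 of the 6. The median difference of the 6 was 0.49, against -0.0090 over all probe sets tested. Differences are of log2(signal + 16), cafeteria minus standard, which understates the change of dim genes.

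Pnlip, the main fat-digesting lipase, had signals of 869, 738, 1301, 734 and 253 on cafeteria replicates 1 to 5, against 720.3, 633, 406 and 363 on standard replicates 1 to 4. 4 cafeteria arrays lay above every standard array and the fifth below them all. The mean was 779 ± 374 (SD, n = 5) in cafeteria islets and 530.4 ± 173 (n = 4) in standard islets. The log2 difference was 0.43 ± 0.36 (SE), with limma's adjusted p at 0.871 and a two-sided p of 0.413 from the exact permutation test over every split into 5 and 4 arrays.

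Pnliprp1 encodes a relative of pancreatic lipase with little activity of its own towards triglycerides. Its signals were 406, 318, 383, 417 and 115 on cafeteria arrays and 353, 275, 172 and 134 on standard arrays, so that 3 cafeteria arrays lay above all standard ones and replicate 5 below them. The difference was 0.43 ± 0.36 (limma adjusted p = 0.870, exact permutation p = 0.325). Pnliprp2, whose product also splits galactolipids and phospholipids, had 255, 129.9, 438, 345 and 31.5 on cafeteria arrays and 152, 180.3, 82.3 and 61.8 on standard arrays. It spread most of the 6, from the lowest to the highest array, and its groups overlapped at both ends. Its difference was 0.65 ± 0.55 (limma adjusted p = 0.870, exact permutation p = 0.389).

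Cel, the bile salt-activated ester hydrolase, had a difference close to that of Pnliprp2. Its signals were 762, 725, 877, 781 and 266 on cafeteria arrays, against 611, 455, 304 and 288 on standard arrays. Again 4 cafeteria arrays exceeded all standard arrays and replicate 5 lay below them. Means were 682 ± 239 (SD, n = 5) in cafeteria islets and 414 ± 151 (n = 4) in standard islets, a log2 difference of 0.66 ± 0.32 (limma adjusted p = 0.839, exact permutation p = 0.135).

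Clps encodes colipase. Its signals were 445, 173, 249, 231 and 128 on cafeteria arrays and 278, 259, 124 and 186 on standard arrays, and only cafeteria replicate 1 lay outside the standard range. The difference was 0.14 ± 0.31 (limma adjusted p = 0.960, exact permutation p = 0.754). Its sign turned without cafeteria replicate 1 (-0.090) or standard replicate 3 (-0.071). Gp2, the granule membrane gene, had 133, 121, 122, 258 and 92.4 on cafeteria arrays and 140.3, 80.8, 88.5 and 61.1 on standard arrays, with cafeteria replicate 4 alone above the standard range. Its difference was 0.54 ± 0.29 (limma adjusted p = 0.849, exact permutation p = 0.127). The mean log2 signal of the Gp2 probe set was at the 44.5th percentile of all probe sets, close to the filter at the 40th.

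**Figure D1:**
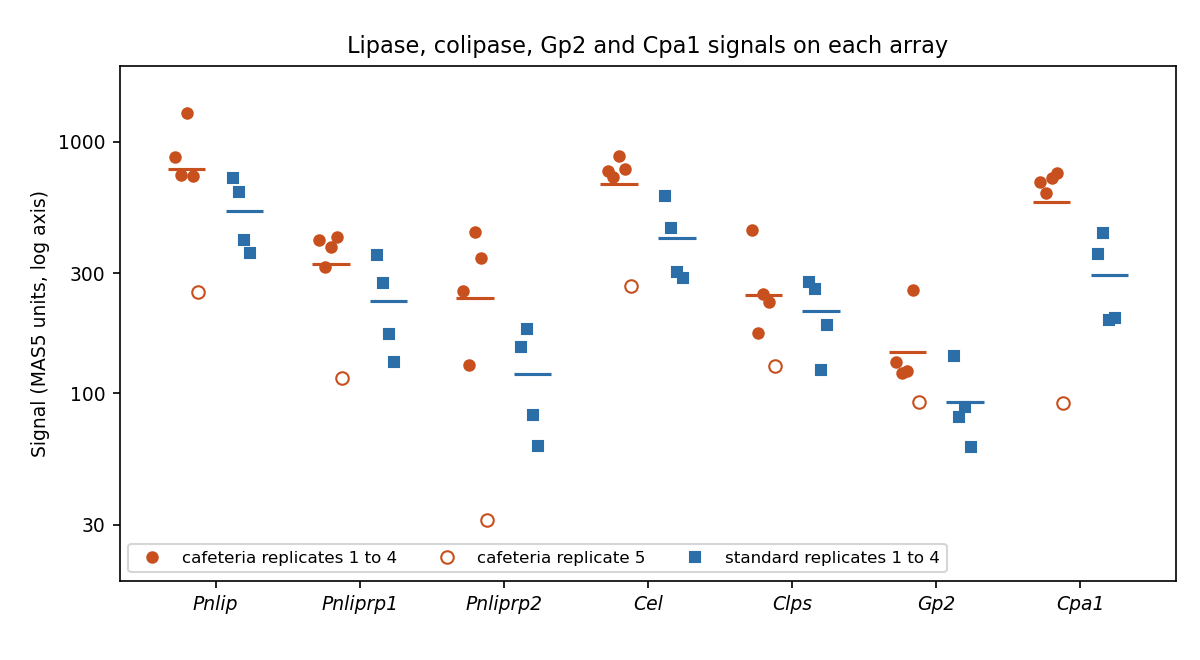
Signal of each gene on each array, on a log axis, with cafeteria arrays as circles (replicate 5 open), standard arrays as squares and horizontal bars at the group means. For Pnlip, Cel and Cpa1, 4 cafeteria arrays lie above all standard arrays and replicate 5 lies below them; levels of different genes come from different probes and are not to be compared.

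Cafeteria replicate 5 was the lowest of the 9 arrays for 4 of the 6 genes (Pnlip, Pnliprp1, Pnliprp2 and Cel), while standard replicate 3 was lowest for Clps and standard replicate 4 for Gp2. The differences without replicate 5 were 0.78 for Pnlip, 0.75 for Pnliprp1, 1.17 for Pnliprp2, 0.96 for Cel, 0.33 for Clps and 0.67 for Gp2. Groups of 4 and 4 then did not overlap for Pnlip and Cel (exact permutation p = 0.0286 each over 70 splits, the smallest possible), as for 1.57% of all probe sets tested. None of the 6 passed limma's test without that array either (lowest adjusted p = 0.840, and 0% of all probe sets). This array was noticed after its values were seen. Leaving out other arrays brought the differences down by over 1.5 times: without cafeteria replicate 3 Pnlip had 0.205 and Pnliprp2 0.356, without standard replicate 4 Pnliprp1 had 0.219, and without cafeteria replicate 4 Gp2 had 0.333. The lowest for Cel was 0.513, without standard replicate 4. The highest was without cafeteria replicate 5 for each gene but Gp2, which had 0.734 without standard replicate 1. On cafeteria replicate 5 the islet hormone genes took 0.979% of the total signal, within the 0.796 to 1.18% of the other cafeteria arrays. The beta-actin 3'/5' signal ratio, a measure of RNA integrity, was 4.59 on it. The other cafeteria arrays had 2.79 to 5.63 and standard arrays 3.00 to 4.84. The part of either in the results was not tested.

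**Figure D2:**
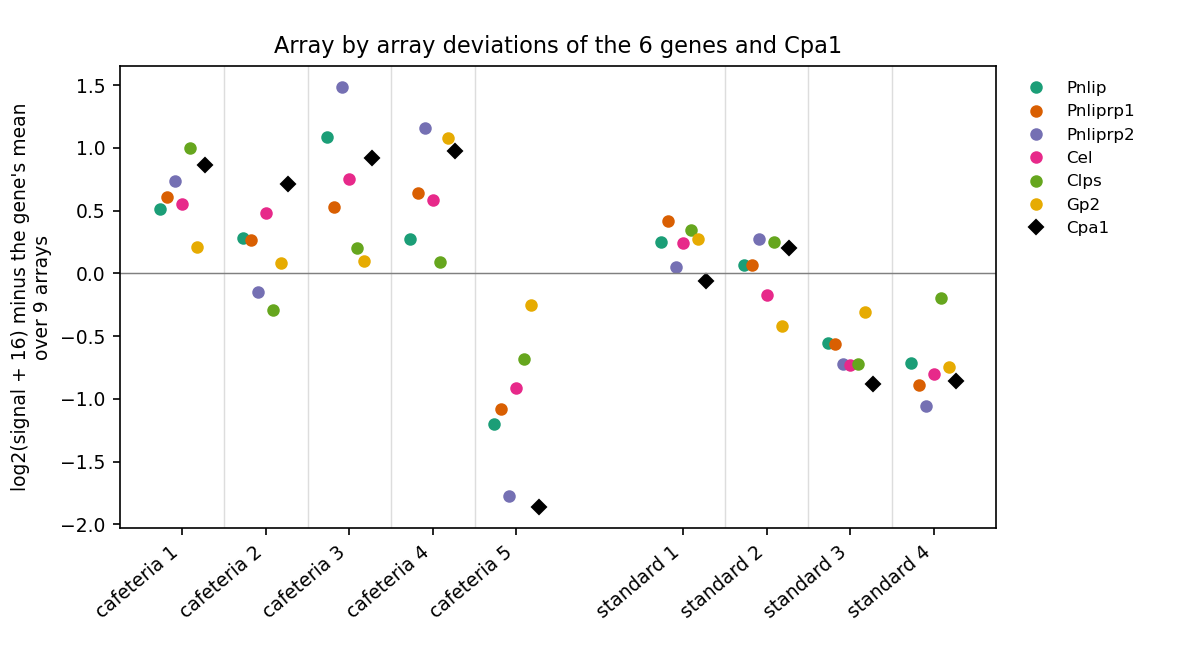
Deviation of log2(signal + 16) from each gene's mean over the 9 arrays (vertical axis), for every array (horizontal axis), with the 6 genes as circles and Cpa1 as diamonds. Every gene is below its mean on cafeteria replicate 5 and standard replicates 3 and 4, and above it on cafeteria replicates 1, 3 and 4.

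Over the 9 arrays the lipase genes deviated together. Among the 15 pairs of the 6 genes, Pearson's r of log2 signals ran from 0.369 (Clps with Gp2) to 0.964 (Pnliprp1 with Cel), with a median of 0.745, and without cafeteria replicate 5 the median was 0.763. The pairs among Pnlip, Pnliprp1, Pnliprp2 and Cel all lay between 0.902 and 0.964, and those with Clps or Gp2 between 0.369 and 0.750. These genes share the arrays and their scaling, and the values describe these 9 arrays only. The 10 other genes whose profile was most like the mean of the 6, of 10341 compared over 9 arrays, were Cela2a (r = 0.981), Ctrc (0.969), Cpa1 (0.952), Dpf3 (0.933), Prss3b (0.932), Cela3b (0.931), Lsg1, Bcl10, Rnase1l2 and Mrps7 (0.909 to 0.923). 4 of these 10 are in the list of acinar proteases, against 9 of all 10341 compared. They are the elastase genes Cela2a and Cela3b, the chymotrypsin gene Ctrc and Cpa1, and Prss3b was not on that list.

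The next comparison asks whether the lipase genes differed more by diet than Cpa1, which encodes the protease carboxypeptidase A1 and comes from the same acinar granules. Cpa1 had signals of 693, 623, 721, 750.3 and 91.4 on cafeteria arrays and 358, 434, 195 and 199 on standard arrays. Its own difference was 0.72 ± 0.50 (SE; limma adjusted p = 0.859, exact permutation p = 0.357), larger in size than that of any of the 6. Each gene's log2 ratio to Cpa1 on the same array was therefore lower on average in cafeteria islets, for 6 of 6 genes, as it was for 99.6% of all probe sets tested, whose median was -0.73. The median over the 6 was -0.23. A ratio within an array shows unequal change of a pair of genes and not which of them changed.

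Set against Cpa1, Clps stood lowest, with a cafeteria minus standard difference of -0.58 in the log2 ratio (95% interval from inverting the exact permutation test, -1.61 to 0.77; exact p = 0.262). The differences were -0.29 for Pnlip (-0.96 to 0.41; exact p = 0.349) and -0.29 for Pnliprp1 (-0.86 to 0.41; exact p = 0.349). Gp2 had -0.18 (-1.39 to 1.11; exact p = 0.802), Pnliprp2 -0.065 (-0.76 to 0.47; exact p = 0.825) and Cel -0.060 (-0.61 to 0.76; exact p = 0.881). 6 ratios were compared, these p-values are two-sided and not adjusted, and 0 of 6 passed. The groups overlapped for all 6, and lay apart with cafeteria lower for 0.0752% of all probe sets. Every interval spans 0, so a lipase difference larger or smaller than that of Cpa1 was not detectable within those bounds with 9 arrays.

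Across all probe sets, limma's fit of the ratio to Cpa1 called 0 of the 6 (adjusted p of 0.553 to 0.938) and 1 of 18624 probe sets (0.00537%), an unnamed one that was lower. At an unadjusted p under 0.05 it gave 90 lower probe sets (0.483%), and 0 of the 6. In that fit each ratio carries the spread of Cpa1, so limma's pooled standard errors were 0.73 to 0.77 for every one of the 6. In simulated data the same fit recovered 0% of planted log2 changes of 0.5, 1 and 2, and 60% of those of 4. That simulation used 1 draw of Cpa1 and drew every other probe set independently of it. It therefore does not show the recovery for genes that follow Cpa1. With standard errors of 0.73 to 0.77, limma's fit could not decide on differences of the size seen here. With the Cpa1 signal as a covariate beside diet, the diet terms were -0.046 ± 0.19 for Pnlip, -0.023 ± 0.20 for Pnliprp1, -0.060 ± 0.29 for Pnliprp2, 0.24 ± 0.16 for Cel, -0.15 ± 0.27 for Clps and 0.36 ± 0.29 for Gp2. None passed (lowest limma adjusted p = 0.819; 0% of 18624 probe sets called, with 1188 at an unadjusted p under 0.05).

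Over the 9 arrays the signals of the lipases followed that of Cpa1. Pearson's r of log2 signals was 0.95 for Cel and Pnliprp1 and 0.93 for Pnlip and Pnliprp2 (exact permutation p of 0.000179 to 0.000446), with Spearman's rho of 0.87 to 0.95 (exact permutation p of 0.000353 to 0.00451). Without the 2 arrays farthest from the median of Cpa1, cafeteria replicate 5 and standard replicate 3, r was 0.84 to 0.94 for these 4 genes. The colipase gene Clps had r = 0.70 (exact permutation p = 0.0365) and rho = 0.53 (p = 0.148), and r was 0.33 without those 2 arrays, on which its relation rests. Gp2 had r = 0.63 (exact permutation p = 0.0648) and rho = 0.63 (p = 0.0760), and 0.72 without them. Within diets, after taking each group's mean away, r was 0.92 to 0.95 for the 4 lipases, 0.70 for Clps and 0.55 for Gp2. These were 6 relations and their p-values are not adjusted.

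**Figure D3:**
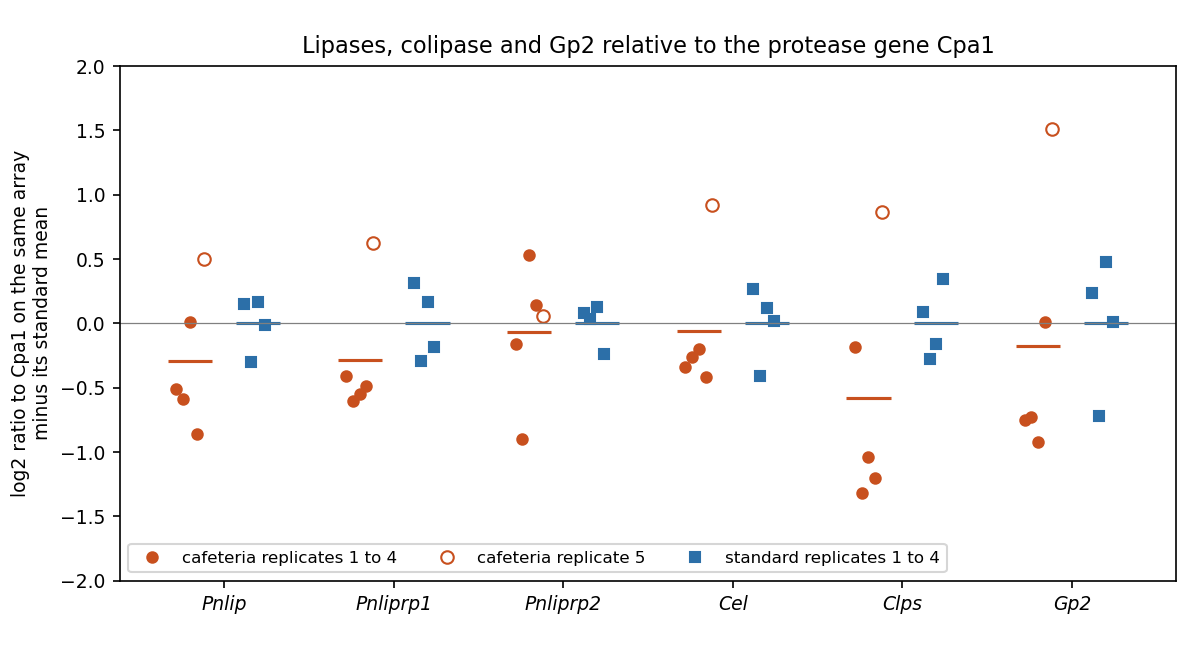
Log2 ratio of each gene to Cpa1 on the same array, minus its mean over standard arrays (vertical axis), with cafeteria arrays as circles (replicate 5 open), standard arrays as squares and bars at group means. The cafeteria mean lies below the standard mean for all 6 genes, and replicate 5 is the highest cafeteria array for 5 of them.

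Cafeteria replicate 5, where Cpa1 was lowest, had the highest ratio of the cafeteria arrays for every gene but Pnliprp2. Without it the differences from Cpa1 were -0.49 for Pnlip, -0.51 for Pnliprp1, -0.095 for Pnliprp2, -0.31 for Cel, -0.94 for Clps and -0.60 for Gp2. The exact permutation p was 0.0857 for Pnlip, 0.0286 for Pnliprp1, 0.829 for Pnliprp2, 0.114 for Cel and 0.0571 for both Clps and Gp2. The groups were then apart for Pnliprp1, but so they were, in the same direction, for 78.8% of all probe sets tested. In limma's fit Clps passed without that array (adjusted p = 0.0161), as did 98.3% of all probe sets. These shares follow Cpa1 itself, whose own difference was 1.26 without replicate 5.

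The size of the contrast with Cpa1 depended on the protease chosen. Of the 14 acinar proteases listed, 11 had a named probe set and 9 were tested. 9 of 9 had a positive difference, against 48.1% of all probe sets tested, with a median of 0.46, and 0 passed over all probe sets. At an unadjusted limma p under 0.05, 2 of the 9 were higher (Cela3b and Ctrb1), against 3.01% of all probe sets tested. Prss2 and Prss3, below the filter on low signal and not tested, had larger differences of 1.80 and 1.59, with standard means of 38.4 and 31.8. Among the 9 tested, values were as follows. Cela3b had 1.37 ± 0.45 (SE), Ctrb1, a chymotrypsinogen gene, 0.94 ± 0.39 and Cpa1 0.72 ± 0.50 (limma adjusted p = 0.839, 0.839 and 0.859), while the elastase gene Cela1 had the smallest, 0.025, which was -0.12 without standard replicate 3. Relative to the mean of the 9 proteases, the differences of the lipases were -0.094 for Pnlip (exact interval -0.49 to 0.36), -0.089 for Pnliprp1 (-0.39 to 0.21), 0.13 for Pnliprp2 (-0.64 to 0.93) and 0.14 for Cel (-0.20 to 0.48). Clps had -0.38 (-0.98 to 0.32) and Gp2 0.020 (-0.86 to 0.91), and the smallest exact p among the 6 was 0.159. For Pnliprp2, Cel and Gp2 the sign was thus opposite to that against Cpa1.

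Other genes listed as acinar were read from further lists, described by their counts. Of 13 other secreted products, 10 had a named probe set and 4 were tested, of which 3 had a positive difference and 0 passed. Pla2g1b, which encodes the pancreatic phospholipase and so acts on dietary fat too, had 0.28 ± 0.29 (SE), the tissue kallikrein gene Klk1 0.29 ± 0.28 and Sycn, a zymogen granule protein gene, 0.40 ± 0.46 (limma adjusted p of 0.885 to 0.912). The amylase gene Amy2a3, the fourth tested and outside the rule for named genes, had -0.19 ± 0.58, and 0.34 ± 0.52 without standard replicate 1, where its signal was 3174 against 470.4 to 1373 on the other standard arrays. Of 10 acinar regulators, 5 were tested, with a median of 0.080. Bhlha15, a transcription factor of secretory cells, had 0.15 ± 0.17, the muscarinic receptor gene Chrm3 -0.10 ± 0.13 and Xbp1 0.06 ± 0.09 (limma adjusted p of 0.914 to 0.932). On cafeteria replicate 5 the proteases had their lowest sum, 2376. The summed signal of the regulators there was 12837, mostly Xbp1, against 11331 to 12857 over all arrays. Bhlha15, Chrm3 and Xbp1 had 838, 629 and 10974 on it, none the gene's lowest. Nr5a2 had 160 there, also not its lowest. Gata6 had 134, its lowest on a cafeteria array, and Gata4, below the filter and not tested, had 30.9, its lowest of all arrays. How far these regulators report on acinar cells was not tested.

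Of the 8 genes of zymogen granule exocytosis, 4 had a positive and 4 a negative difference, with a median of -0.0038 and 0 passing. Stxbp2, which encodes a syntaxin-binding protein used in granule fusion, had 0.61 ± 0.14 and groups that did not overlap, as for 0.999% of all probe sets in that direction. Rab3d, a granule GTPase gene, had 0.20 ± 0.12 and Dmbt1, a mucin-like secreted protein gene, -1.16 ± 0.53 (limma adjusted p of 0.839 to 0.859 for the 3 genes). Dmbt1 had a signal of 1742 on standard replicate 1 and 221 to 435 on the other standard arrays, and its difference without that array was -0.52 ± 0.38. Lipase and lipase-related genes that do not serve digestion in the gut lay near 0: of 9 listed, 7 were tested, with a median of 0.0064 (Abhd5), and 4 were positive and 3 negative. Among them Pnpla3 had -0.27 ± 0.20, the hormone-sensitive lipase gene Lipe 0.15 ± 0.22 and the adipose triglyceride lipase gene Pnpla2 -0.06 ± 0.14 (limma adjusted p of 0.863 to 0.963).

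**Figure D4:**
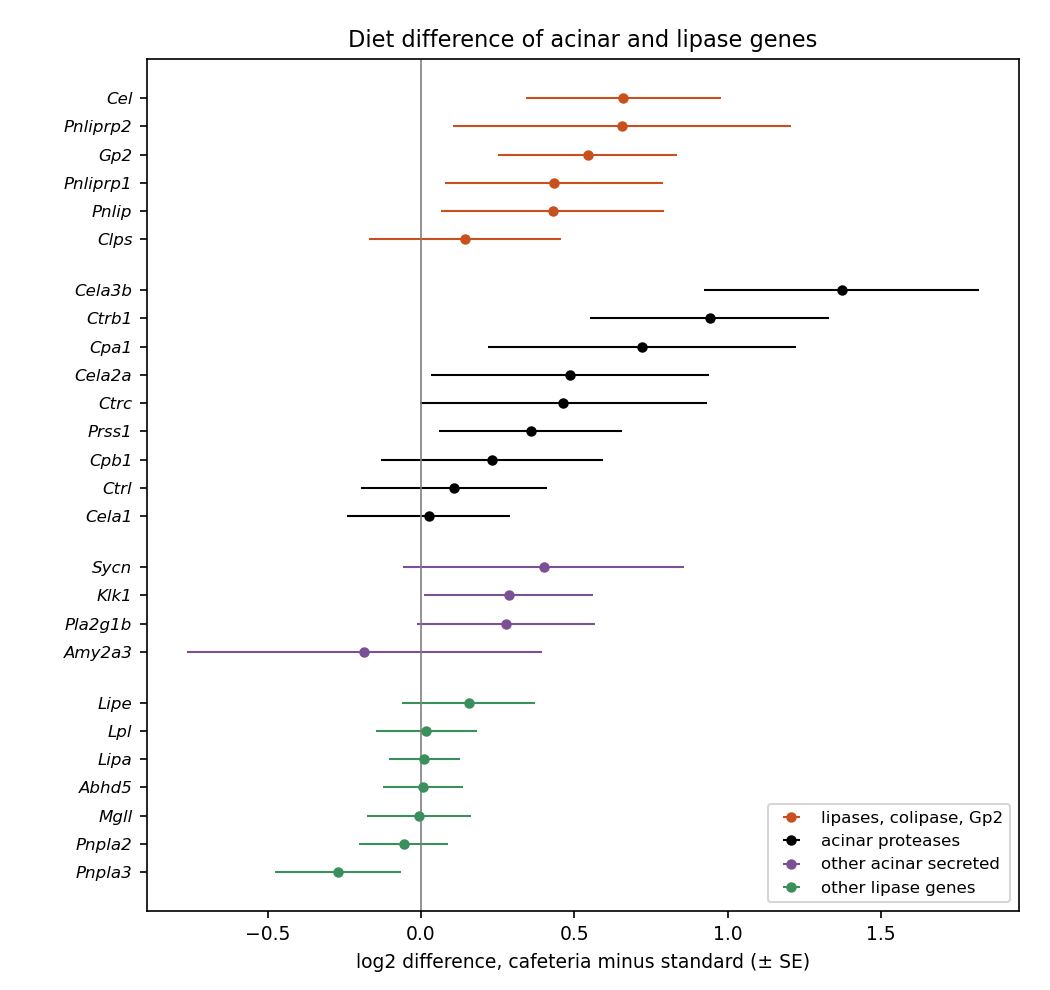
Log2 difference between cafeteria and standard islets (horizontal axis, points, with SE as bars) for the tested genes of 4 lists, 1 gene a row. The 6 followed genes lie between 0.14 and 0.66, inside the 0.025 to 1.37 of the acinar proteases. The other lipase and lipase-related genes, labelled other lipase genes, lie between -0.27 and 0.15.

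Summed signals of the cell type lists were as follows. The 6 genes together had 887 to 3371 on cafeteria arrays and 1093 to 2255 on standard arrays, and the 11 proteases with a named probe set had 2376 to 8085 on cafeteria arrays and 2818 to 5821 on standard arrays. Both were lowest on cafeteria replicate 5. For the 8 duct genes with a named probe set the sums were 3907 to 5341 on cafeteria arrays and 4542 to 8158 on standard arrays. Most of each duct sum was Krt7, with 2461 to 4233 over the 9 arrays. Of 6 duct genes tested 2 had a positive and 4 a negative difference, 0 passed and the median was -0.15. Cldn4, a tight junction gene, had -0.31 ± 0.19, and the keratin genes Krt19 and Krt7 had -0.56 ± 0.61 and -0.13 ± 0.14 (limma adjusted p of 0.859 to 0.903). Standard replicate 1 stood apart here: its duct sum was 8158, against 4542 to 5387 on the other standard arrays, and 5 of the 8 duct genes had their highest signal of the 9 arrays on it. Krt19 was at 1799 there and at 72.3 to 382 on the other standard arrays, and without that array its difference was 0.17 ± 0.43, while Cldn4 had -0.13 ± 0.17 and Krt7 -0.059 ± 0.15. The 6 lipase, colipase and Gp2 genes had differences of 0.29 to 0.86 without it, and none passed limma's test (adjusted p of 0.542 to 0.802). No value in these lists was at 0. The part of duct tissue in the results was not tested.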

How the data were processed

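Islet RNA of 5 cafeteria-fed and 4 standard-fed rats was measured on single-colour Affymetrix arrays. Each deposited intensity is a linear signal of a probe set, for which the submitters' processing notes name MAS5 without settings. The trimmed mean (2% from each end) of every array was 500.0, and nothing was rescaled. The 57 control probe sets were left out. Platform annotation named 20826 probe sets by 1 symbol, 436 by several and left 9780 unnamed.

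Log2(signal + 16) was fitted on diet alone, with an intensity trend, in limma 3.58.1 under R 4.3.3 over the 18625 probe sets at or above the 40th percentile of mean log2 signal, with Benjamini-Hochberg adjustment. The fit was repeated after subtracting Cpa1 on each array (18624 probe sets). Single values were tested by exact enumeration in Python 3.11.15. Both fits were tested on 1 set of simulated data, with 50 probe sets changed at each size. Probe sets were drawn independently of each other and of Cpa1, unlike the lipases here, which followed Cpa1. For diet, 16% were recovered at a log2 change of 0.5, 78% at 1 and 100% at 2, with 6 false calls. The changed probe sets were picked at random over all those tested. These shares are thus not the recovery for the 6 genes, whose standard errors were 0.29 to 0.55. Relative to Cpa1, 0% were recovered at 0.5, 1 and 2, and 60% at 4. A gene's main probe set was the one with the highest mean signal. Named genes were the 6 genes, Cpa1, up to 3 genes per list by smallest unadjusted p, and the 10 most alike; genes at a list's extreme were named after their values were seen. The 6 genes and the lists were chosen with earlier results of these data known. The design text names 1 more standard sample, not analysed here. Alternatives were other pseudocounts, normalisations, filters, variance models, weights and comparators, a replicate block and leaving out each array; leaving out cafeteria replicate 5 with standard replicate 1, and each array in turn for the listed genes, was added after seeing the data.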

Additional observations from a re-analysis of the deposited data

Results flagged for a closer look

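Cafeteria replicate 5 stood apart from the other 4 cafeteria arrays, by Dixon's test at the 95% level on log2 values, in 5 of 13 checks of a gene or ratio within the cafeteria group, and no standard array did in 13 checks. Chance flags about 1 in 20 groups, but these checks are not independent, since the ratios share Cpa1 and the genes share the arrays. Its signals were 114.9 for Pnliprp1, 266.2 for Cel and 91.38 for Cpa1, each the lowest of the group. Its log2 ratios to Cpa1 were 0.2859 for Pnliprp1 and 1.394 for Cel, each the highest of the group.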

How the results depend on the processing

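With 9 arrays, signals without detection calls and differences of the order of the spread between arrays, small diet effects were not detectable. Relative to Cpa1, limma's fit missed even planted log2 changes of 2 in simulated data, where probe sets were drawn independently of Cpa1. Over 19 alternatives the median difference of the 6 genes stayed positive (0.33 to 0.96). Over 22 the median relative to Cpa1, to another comparator or with Cpa1 as a covariate stayed negative (-0.51 to -0.02). The -0.02 was against the mean of Cpb1, Ctrb1 and Prss1, and ratios to Cpa1 itself gave -0.51 to -0.12. A negative sign relative to Cpa1 was shared by 99.6% of all probe sets in the main fit. No probe set was called for diet in 18 of 19 alternatives; with each array left out the count ran from 0 to 2, the 2 without standard replicate 2. Relative to Cpa1, where 1 probe set was called, the count ran from 0 to 18302 with each array left out: leaving out cafeteria replicate 5 gave 18302, standard replicate 3 gave 0 and standard replicate 2 gave 2. It was 0 with the filter at the 60th percentile or Cpa1 as a covariate, 3 with no intensity trend, 5 against the mean of the tested proteases, 8 against the mean of Cpb1, Ctrb1 and Prss1, 18605 with array weights and 18281 without cafeteria replicate 5 and standard replicate 1. With a replicate block, which leaves cafeteria replicate 5 without weight, it was 17761, and 0 for diet alone. By construction each ratio holds Cpa1, so these counts move with its own difference. Clps relative to Cpa1 passed limma's threshold without cafeteria replicate 5 (-0.94), also with standard replicate 1 left out (-0.91), with the replicate block (-0.94) and with array weights (-1.10); with weights Pnlip (-0.64) and Gp2 (-0.59) passed too.

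Signs relative to Cpa1 turned for Pnliprp2 without cafeteria replicate 2 (0.14), with array weights (0.060), against the mean of the tested proteases (0.13) and against Cpb1, Ctrb1 and Prss1 (0.14). They turned for Cel without cafeteria replicate 1 (0.0098), cafeteria replicate 4 (0.029) or standard replicate 1 (0.029), against the proteases (0.14 and 0.15) and with the covariate (0.24), and for Gp2 without cafeteria replicate 3 (0.0088), against the proteases (0.020 and 0.033) and with the covariate (0.36). The diet difference of Clps turned without cafeteria replicate 1 (-0.090) or standard replicate 3 (-0.071). With each array left out in turn, the ratio differences ran from -0.21 to 0.14 for Pnliprp2, -0.31 to 0.029 for Cel and -0.60 to 0.0088 for Gp2. The causes were not tested. The replicate numbers do not pair the samples: same-numbered arrays had correlations of deviations between -0.384 and 0.030, and 0 of 8 arrays correlated best with its own number. No gene had a further named probe set, so that alternative gave no value, and genes below the 60th percentile filter have none there.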
